A study of Mus musculus with 2 samples.

Results

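The endoplasmic reticulum (ER) chaperones and the genes of the unfolded protein response were described in CD4+ T cells of mouse fat and spleen. The set holds 32 genes, found by symbol among the 55487 genes of the expression library. They comprise 9 lumenal chaperones and cochaperones, 2 lectin chaperones, 5 enzymes of disulfide formation, 3 translocation genes, 5 genes of ER-associated degradation, the 3 stress sensors, 3 transcription factors and 2 stress-feedback genes. The mice were C57BL/6 Foxp3.Cre-YFP, either wild-type or knockout for Bmal1, a core clock factor that Cre driven from Foxp3 deletes in Foxp3-expressing cells, the regulatory T cells (Tregs). Mice were kept in reverse-light rooms, with no age given by the labels, and CD4+ T cells were sorted at zeitgeber time 0 or 12, 34000 from visceral adipose tissue (VAT) and 32000 from spleen. Cells of each tissue, genotype and time were tagged with hashing antibodies, pooled, and run as 1 library of gene expression (10x Genomics 3′) and 1 of hashtags. The hashtags are named by number alone, so no value here belongs to a known tissue, genotype or time. They are not replicates either, and no test between groups was possible.

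Proteins that enter the ER pass the Sec61 channel, fold with the help of BiP and GRP94, the lectins calreticulin and calnexin and the protein disulfide isomerases, and are sent back for destruction when folding fails. When unfolded protein builds up, 3 sensors respond. IRE1 (Ern1) splices Xbp1 mRNA, ATF6 is cleaved into a transcription factor that raises chaperone genes, and PERK (Eif2ak3) phosphorylates eIF2 alpha, which lowers translation and favours ATF4, CHOP (Ddit3) and the feedback phosphatase subunit GADD34 (Ppp1r15a). Other kinases also phosphorylate eIF2 alpha, so ATF4 and its targets are not read by the ER alone. In lymphocytes the XBP1 branch is best known from plasma cells, which secrete antibody. A 3′ count of Xbp1 does not separate its spliced from its unspliced form.

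The promoters were searched for exact letters of the ER stress response element (ERSE), the composite site bound by ATF6 together with NF-Y. Variants of these letters were not searched, so a member without a match may still carry a form of the element. The letters searched were CCAAT, then any 9 bases, then CCACG, on both strands of the 250 bases before each RefSeq gene start (GRCm38.p6). They were present in 8 of the 28 members with a promoter entry (28.6%) and in 35 of 27025 genes (0.130%). These windows are shown because they hold the letters of the element through which ATF6 is known to act on chaperone genes. Each is written 5′ to 3′ in the direction of its gene, with the match in capitals; a match on the opposite strand begins CGTGG and ends ATTGG.
Hspa5 (chr2:34772015-34772053, plus strand, 65 to 47 bases before the start): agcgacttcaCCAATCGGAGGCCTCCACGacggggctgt
Hsp90b1 (chr10:86705628-86705666, minus strand, 212 to 194 bases before the start): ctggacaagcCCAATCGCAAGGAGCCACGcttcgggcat
Hsp90b1 (chr10:86705523-86705561, minus strand, 107 to 89 bases before the start): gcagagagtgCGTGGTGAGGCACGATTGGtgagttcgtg
Calr (chr8:84847065-84847103, minus strand, 162 to 144 bases before the start): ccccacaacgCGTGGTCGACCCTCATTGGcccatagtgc
Canx (chr11:50325790-50325828, minus strand, 145 to 127 bases before the start): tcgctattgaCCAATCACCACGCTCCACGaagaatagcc
Pdia6 (chr12:17266481-17266519, plus strand, 98 to 80 bases before the start): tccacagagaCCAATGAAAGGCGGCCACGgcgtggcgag
Dnajc3 (chr14:118937817-118937855, plus strand, 105 to 87 bases before the start): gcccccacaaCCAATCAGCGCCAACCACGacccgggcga
Creld2 (chr15:88819510-88819548, plus strand, 126 to 108 bases before the start): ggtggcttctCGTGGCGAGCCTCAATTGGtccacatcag
Syvn1 (chr19:6046522-6046560, plus strand, 44 to 26 bases before the start): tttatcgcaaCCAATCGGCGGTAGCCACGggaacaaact
The 8 genes encode BiP (Hspa5), GRP94 (Hsp90b1, with 2 matches), calreticulin, calnexin, the isomerase Pdia6, the cochaperone p58IPK (Dnajc3), Creld2 and the ubiquitin ligase HRD1 (Syvn1). The letters TGACGTGG, a cyclic-AMP-element-like site of ATF6 and XBP1, were in none of the 28 windows and in 0.603% of all genes. The letters TTGCATCA, of a CHOP or ATF4 composite site, were in 1 member, Herpud1, and in 0.918% of all genes.
Herpud1 (chr8:94386307-94386334, plus strand, 112 to 105 bases before the start): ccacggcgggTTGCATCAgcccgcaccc
The looser pattern TGATGNAA reads the same Herpud1 stretch from the other strand and was present in 3.91% of all genes. Manf, Hyou1, Atf6 and Sec61a1 had no promoter entry. A match is a description of these letters, not evidence that a factor binds there.

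After hashtag calling 13599 single cells with 48738657 UMIs (unique molecular identifiers, counts of distinct RNA molecules) were kept, 1360 to 3488 per hashtag, and 12541 of them were T cells by their markers. Median depth was 2820 to 3773 UMIs per cell over the 6 hashtags. T cells were gated by single genes, each cell going to the first gate it met: cycling (Mki67), Il1rl1-positive (the IL-33 receptor ST2, carried by fat Tregs), Foxp3-positive Il1rl1-negative, Cxcr5-positive, Gzmb-positive, Cxcr3-positive, naive (at least 3 UMIs over 5 genes of naive T cells, Ccr7, Lef1, Igfbp4 and Dapl1 among them) and other T cells. The Il1rl1 gate held 2295 cells, but only 14.5% of them had a Foxp3 UMI, so it is not called Treg here. In hashtags 5 and 6 an Il1rl1 UMI was found in 4.66% and 4.78% of T cells, no more than the 5.05% and 8.97% of barcodes with markers of other cell types. The gate is not told from background there. In hashtags 1 to 4 the share was 22.2% to 41.2%, against 16.1% to 32.5% in those barcodes, many of which also hold T cell genes and are no clean negative. The shares for 3 more gate genes also overlapped with those barcodes: over hashtags Foxp3 UMIs were in 2.65% to 8.53% of T cells and 3.03% to 11.25% of them, Cxcr5 UMIs in 1.67% to 7.19% and 1.19% to 8.08%, and Cxcr3 UMIs in 20.4% to 39.3% and 21.7% to 37.3%. The share in T cells was the lower of both in hashtags 4 and 5 for Foxp3. It was also lower in 1, 2, 4, 5 and 6 for Cxcr5 and in 5 and 6 for Cxcr3. For Mki67 it was lower in 1, 2, 5 and 6. The shares do not tell these gates from background there. The other barcodes were also deeper, with medians of 3782.5 to 4545 UMIs over hashtags against 2781.5 to 3764 in T cells. Plasma cell markers, whose cells express this pathway strongly, summed to 40.9 to 81.1 CPM (UMIs of a gene scaled to a common library total, as counts per 1000000) in the T cell gates and to 4793 CPM in the cells outside them. Their part in the results was not tested.

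The summed level of the 16 chaperone and disulfide enzyme genes was lowest in naive and highest in cycling cells. It was 1184 CPM (1164 to 1204, exact 95% Poisson interval, counting error only) in naive cells, 1530 (1504 to 1556) in Cxcr3-positive, 1564 (1538 to 1591) in other T, 1593 (1522 to 1667) in Foxp3-positive Il1rl1-negative, 1673 (1608 to 1740) in Cxcr5-positive, 1711 (1610 to 1816) in Gzmb-positive, 1742 (1714 to 1770) in Il1rl1-positive and 2053 (2002 to 2105) in cycling cells. Only the naive gate below and the cycling gate above had intervals apart from all others; the intervals of Cxcr3-positive, other T and Foxp3-positive cells overlapped, as did those of Cxcr5-, Gzmb- and Il1rl1-positive cells. By hashtag, naive cells gave 1216, 1347, 1015, 1009, 1283 and 1077 CPM and cycling cells 2174, 2328, 1969, 1838, 1960 and 1653 CPM for hashtags 1 to 6. The ranges of these gates over hashtags did not overlap. The summed level of the 3 sensors was 11.5 CPM (9.61 to 13.7) in naive cells and 34.9 (31.0 to 39.1) in Il1rl1-positive cells, with the other gates at 19.3 to 28.8. All these pooled levels mix hashtag with gate, as naive cells were mostly of hashtags 5 and 6 and Il1rl1-positive cells of hashtags 1 to 4. Within hashtag 5 the sensors were at 12.8 CPM in naive and 12.1 in Il1rl1-positive cells. In hashtag 3 they were at 8.45 in naive, 29.8 in Il1rl1-positive, 38.8 in cycling and 44.2 in Foxp3-positive Il1rl1-negative cells. The last value rests on 6 Atf6, 2 Ern1 and 1 Eif2ak3 UMIs. Hashtags 1, 2 and 4 had another order, with Il1rl1-positive cells the highest of these gates at 39.4, 38.5 and 41.0 CPM. Cycling cells were there at 28.7, 29.6 and 27.5 CPM and Foxp3-positive Il1rl1-negative cells at 35.8, 34.4 and 20.6.

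**Figure D1:**
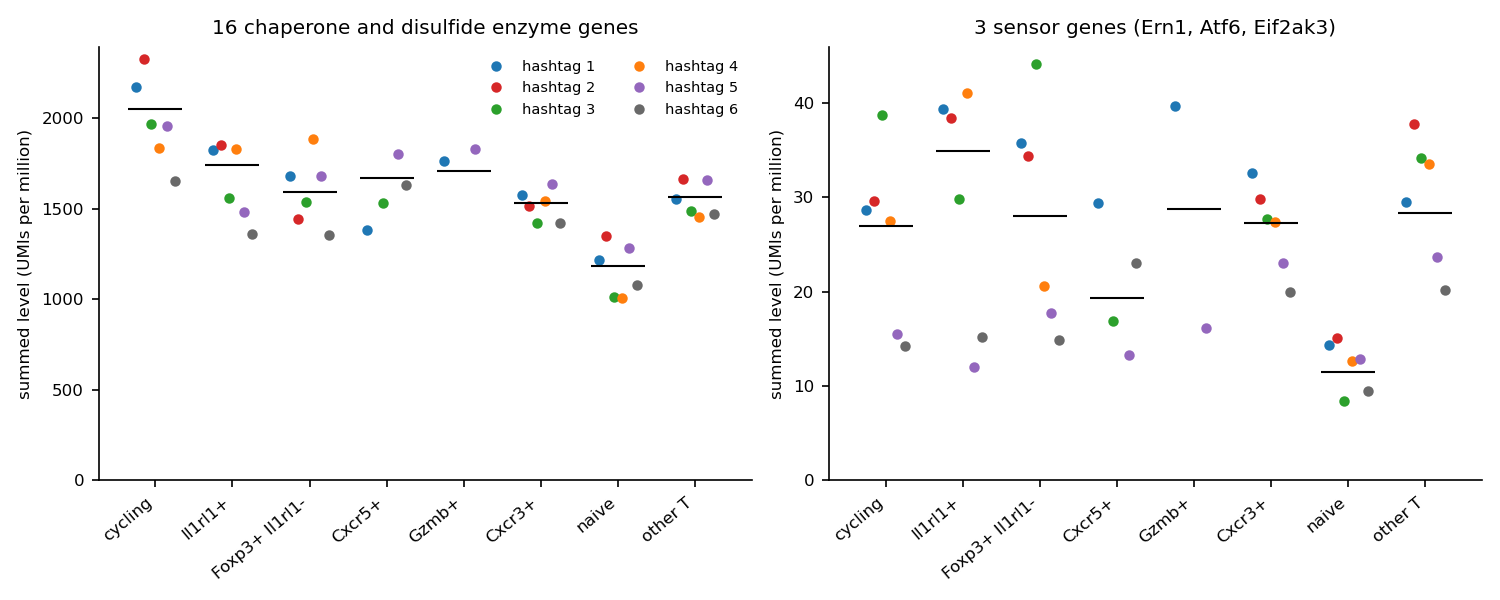
Summed level in CPM (vertical axis, from 0) of the 16 chaperone and disulfide enzyme genes (left) and the 3 sensor genes (right) in 8 T cell gates; each point is 1 hashtag with at least 30 cells in the gate and the bar is the level over all cells of the gate. Naive cells lie at 1009 to 1347 CPM on the left, below the 1653 to 2328 CPM of cycling cells.

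One property of the naive gate bears on every comparison with it: ribosomal protein genes took 41.0% of its UMIs, against 26.6% in Il1rl1-positive and 30.01% in Cxcr3-positive cells. Leaving ribosomal protein and mitochondrial genes out of the totals shifted the median log2 ratio of all genes by -0.21 to -0.24 in the comparisons with naive cells, and by -0.03 to -0.08 in those with Cxcr3-positive cells. Ratios are therefore given beside the median of all genes, and with the second scaling where it changes a call. In each comparison counts were summed per hashtag and gate, and the log2 ratio of CPM (prior count 0.5) was taken within each hashtag with at least 30 cells on both sides. A gene counted as higher or lower when its median over hashtags was past 1.5-fold and all hashtags had the same sign, and it was read only at 10 CPM or more in either gate. Ern1, Eif2ak3 and Trib3 did not reach that level in any comparison, so 29 members were read in each, and 28 for Cxcr5-positive cells, where Atf6 also fell short. The 4 comparisons with naive cells share those cells, and the 3 with Cxcr3-positive cells share theirs.

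Il1rl1-positive cells were compared with naive cells in 6 hashtags. Of the 29 members read, 8 were higher, the lectin chaperone Calr, the disulfide enzymes P4hb and Ero1l, the degradation gene Herpud1, the transcription factors Xbp1 and Atf4, the sensor Atf6 and the feedback gene Ppp1r15a, where 9.84% of all genes were higher. No member was lower, where 2.09% of all genes were. The median log2 ratio over members was 0.49, against 0.16 over all genes, and 25 of 29 members had a median above 0. With the second scaling these medians were 0.21 and -0.07, and 19 of 30 members had a median above 0. The members counted as higher were then 3 of 30, Ero1l, Xbp1 and Atf6, where 5.75% of all genes were.

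**Figure D2:**
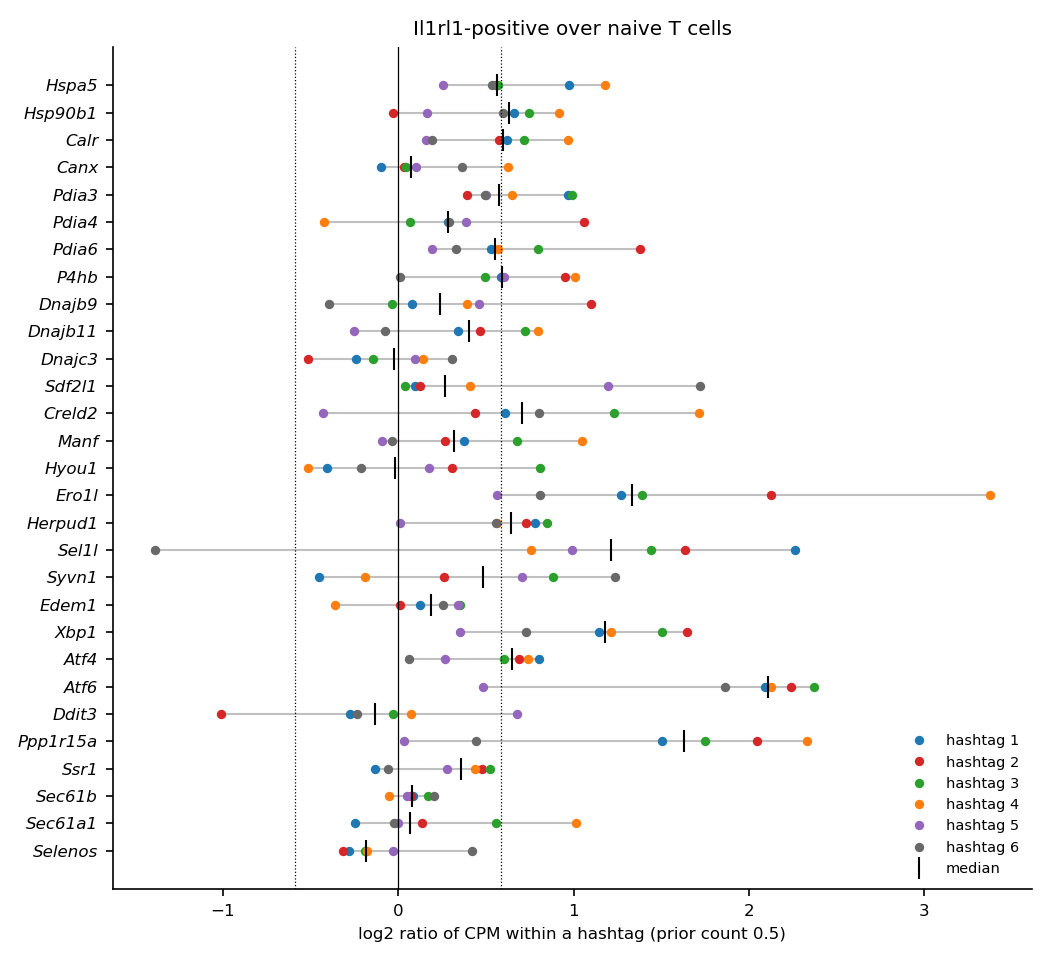
Log2 ratio of CPM, Il1rl1-positive over naive T cells, for the 29 members read; points are hashtags, ticks are medians, grey lines are ranges and dotted lines mark 1.5-fold. Atf6, Ppp1r15a, Ero1l, Sel1l and Xbp1 have the highest medians (2.11, 1.63, 1.33, 1.22 and 1.18), while Sec61b, Sec61a1, Canx, Dnajc3 and Hyou1 lie near 0.

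Among the chaperones, BiP (Hspa5), the main Hsp70 of the ER lumen, was at 276 CPM (265 to 287) in Il1rl1-positive and 165 CPM (157 to 172) in naive cells. Its median log2 ratio was 0.57, above 0 in 6 of 6 hashtags and just short of the 1.5-fold line. GRP94 (Hsp90b1), the ER Hsp90, had a median of 0.63, but 1 hashtag lay at -0.03. Calreticulin (Calr) passed with a median of 0.60 and a range of 0.16 to 0.97, whereas its membrane-bound partner calnexin (Canx) had a median of 0.07. The isomerases Pdia3 (0.58), Pdia6 (0.55) and P4hb (0.59) lay close together around the line, and only P4hb was past it; Pdia4 had a median of 0.29. Cochaperones were more mixed: medians were 0.71 for Creld2, 0.41 for Dnajb11, 0.32 for Manf, 0.27 for Sdf2l1, 0.24 for Dnajb9 and -0.02 for both Dnajc3 and Hyou1, and none was counted. None of the translocation genes was counted, with medians of 0.08 for Sec61b, 0.07 for Sec61a1 and 0.36 for Ssr1.

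Ero1l, the oxidase that recharges the disulfide isomerases, had the highest median of the disulfide enzymes. In hashtags 1 to 6 it was at 80.1, 90.4, 56.9, 91.8, 20.7 and 22.7 CPM in Il1rl1-positive cells, at 33.4, 30.9, 29.0, 39.6, 15.2 and 22.6 CPM in Cxcr3-positive cells and at 32.3, 18.9, 21.1, 7.61, 14.5 and 13.5 CPM in naive cells. Hashtags 1 to 4 of the Il1rl1 gate stood above every naive and Cxcr3-positive value, while hashtags 5 and 6 lay within the range of those gates. This was not particular to the Il1rl1 gate. In hashtags 1 to 4 cycling cells were at 61.6, 99.9, 56.0 and 73.4 CPM. Foxp3-positive Il1rl1-negative cells were at 46.5, 43.0, 44.2 and 82.5 CPM there. Over all hashtags the level was 74.0 CPM (68.4 to 80.0) in Il1rl1-positive, 27.4 (24.0 to 31.1) in Cxcr3-positive and 15.3 (13.1 to 17.8) in naive cells. Against Cxcr3-positive cells the ratio in hashtags 1 to 4 was 2.40 (1.84 to 3.15), 2.93 (1.98 to 4.47), 1.96 (1.36 to 2.87) and 2.32 (1.53 to 3.66), with exact 95% intervals. In hashtags 5 and 6, where the Il1rl1 gate is not told from background, it was 1.36 (0.632 to 2.75) and 1.01 (0.415 to 2.22).

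The sensor Atf6 was scarce in naive cells. Its level was 22.9 CPM (19.8 to 26.3) in Il1rl1-positive, 15.5 (13.0 to 18.4) in Cxcr3-positive, 19.5 (12.4 to 29.3) in Foxp3-positive Il1rl1-negative and 3.54 (2.53 to 4.82) in naive cells. Naive cells gave 3, 1, 2, 2, 23 and 9 Atf6 UMIs in hashtags 1 to 6, so the single ratios are wide. Foxp3-positive Il1rl1-negative cells gave 7, 4, 6, 1, 3 and 2 UMIs. The interval of their ratio to naive cells included 1 in hashtags 2, 4, 5 and 6. For Cxcr3-positive cells it included 1 in hashtags 2 (0.630 to 172) and 4 (0.639 to 28.2). For Il1rl1-positive cells it lay above 1 in hashtags 1 to 4 but included 1 in hashtags 5 (0.236 to 4.06) and 6 (0.574 to 13.2), on 3 UMIs each. The ratio of Cxcr3-positive to naive cells in hashtags 5 and 6, where naive cells were most numerous, was 2.86 (1.53 to 5.34) and 4.53 (1.75 to 12.2). In those hashtags the share of Cxcr3 UMIs does not tell the Cxcr3 gate from background. The median log2 ratio over the 6 hashtags was 1.64 for Cxcr3-positive, 2.11 for Il1rl1-positive and 2.22 for Foxp3-positive Il1rl1-negative cells, and it stayed past 1.5-fold at 1.44, 1.82 and 2.01 with the second scaling. The other sensors were below 10 CPM in these gates: IRE1 (Ern1) was at 2.21 CPM (1.43 to 3.27) in naive and 5.71 (4.23 to 7.55) in Il1rl1-positive cells, and PERK (Eif2ak3) at 5.75 (4.44 to 7.33) and 6.30 (4.73 to 8.22).

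Xbp1, the IRE1 substrate, was at 69.3, 76.4, 85.4, 84.9, 36.2 and 35.4 CPM in Il1rl1-positive cells of hashtags 1 to 6 and at 30.5, 22.6, 29.6, 35.5, 28.9 and 22.0 CPM in naive cells. Cxcr3-positive cells lay between 40.3 and 62.8 CPM. Hashtags 1 to 4 of the Il1rl1 gate were above all naive and Cxcr3-positive values. The median log2 ratio to naive cells was 1.18 (range 0.35 to 1.64) for Il1rl1-positive and 0.66 (0.48 to 1.37) for Cxcr3-positive cells, and 0.89 and 0.44 with the second scaling, which ends the call for Cxcr3-positive cells.

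Ppp1r15a, the stress-induced subunit that directs a phosphatase to eIF2 alpha, varied more than any other member read in the Il1rl1 gate. In Il1rl1-positive cells it was at 446, 459, 410, 415, 36.2 and 55.6 CPM in hashtags 1 to 6, in Cxcr3-positive cells at 191, 208, 163, 160, 47.1 and 41.7, and in naive cells at 156, 109, 121, 81.1, 36.1 and 41.7. Each gate had its 2 lowest values in hashtags 5 and 6, and in hashtags 1 to 4 Il1rl1-positive cells were above Cxcr3-positive and naive cells without overlap. The median log2 ratio to naive cells was 1.63 (range 0.03 to 2.33). Atf4, the transcription factor translated when eIF2 alpha is phosphorylated, followed a flatter course, with 173, 167, 146, 172, 82.7 and 78.3 CPM in Il1rl1-positive and 98.8, 102, 95.8, 101, 69.2 and 76.2 CPM in naive cells. Its median log2 ratio to naive cells was 0.65. CHOP (Ddit3), a further step of that branch, was not counted, at 23.8 CPM (20.6 to 27.3) in Il1rl1-positive and 22.9 (20.2 to 25.9) in naive cells, with a median of -0.13. Trib3, a pseudokinase induced by CHOP, was at 0.816 CPM (0.328 to 1.68) and 2.57 (1.72 to 3.69).

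**Figure D3:**
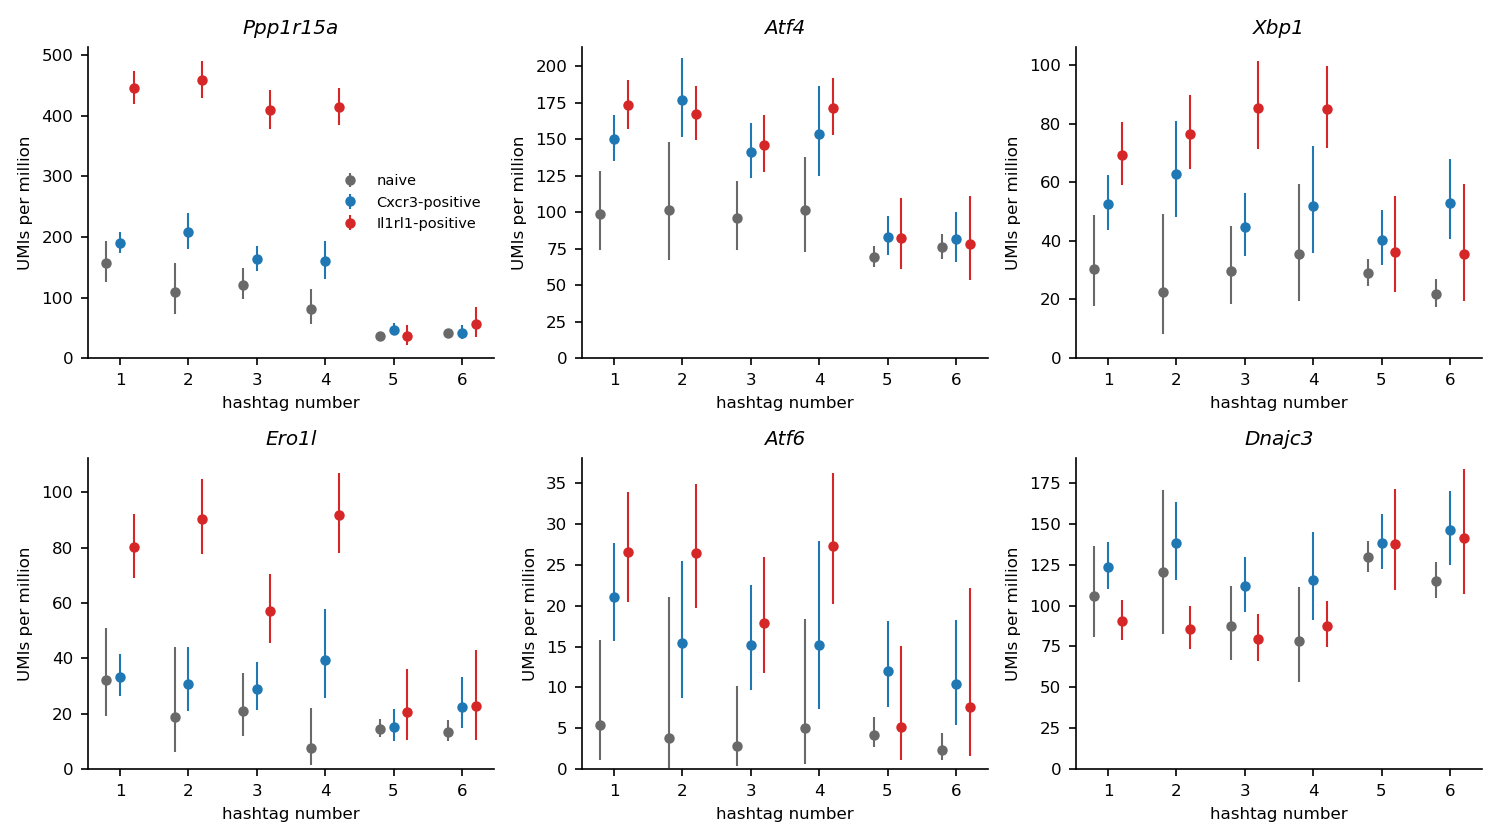
Level in CPM (vertical axis, from 0) of 6 members in naive, Cxcr3-positive and Il1rl1-positive T cells of hashtags 1 to 6, with exact 95% Poisson intervals (counting error only). Ppp1r15a lies at 410 to 459 CPM in Il1rl1-positive cells of hashtags 1 to 4 and at 36.2 and 55.6 CPM in hashtags 5 and 6; Dnajc3 runs the other way, at 79.4 to 90.4 against 138 and 142 CPM.

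Immediate early and heat shock genes that respond to tissue dissociation moved along with Ppp1r15a and Atf4. Summed over 14 such genes, the level was 13280, 17700, 11627, 16163, 2437 and 2678 CPM in Il1rl1-positive cells of hashtags 1 to 6, 6026, 6595, 5038, 5964, 2479 and 2509 CPM in Cxcr3-positive cells and 4025, 4280, 3015, 3532, 2257 and 2217 CPM in naive cells. All 14 had a median above 0 against naive cells and 8 were counted as higher. Junb, one of them, was at 4627, 5254, 3751, 4908, 355 and 470 CPM in Il1rl1-positive cells. The part of dissociation in the values of the members was not tested.

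Among the degradation genes Herpud1, which assembles the HRD1 complex, was the 1 counted in Il1rl1-positive cells. It was at 90.5 CPM (84.2 to 97.1) against 51.6 (47.5 to 56.0) in naive cells, with a median log2 ratio of 0.65 and a range of 0.01 to 0.85. Sel1l, the adaptor of HRD1, had the higher median of 1.22, but in hashtag 6 it rested on 3 UMIs and the ratio was 0.330 (0.0667 to 0.994). It was counted in Cxcr3-positive (0.83), Foxp3-positive Il1rl1-negative (1.47) and Cxcr5-positive cells (0.87) against naive cells, and in all 3 also with the second scaling (0.61, 1.16 and 0.66). Foxp3-positive Il1rl1-negative cells gave 10, 5, 8, 5, 10 and 9 Sel1l UMIs in hashtags 1 to 6. The interval of their ratio to naive cells included 1 in hashtags 2 to 6. Naive cells gave 4, 2, 11, 7, 144 and 90 Sel1l UMIs in hashtags 1 to 6. In hashtags 5 and 6, where these were most, the ratio of Cxcr3-positive to naive cells was 1.25 (0.916 to 1.69) and 1.40 (0.926 to 2.07), under 1.5-fold. There, too, the share of Cxcr3 UMIs does not tell that gate from background. HRD1 itself (Syvn1) had a median of 0.49 in Il1rl1-positive cells, Edem1, a mannosidase-like protein that passes misfolded glycoproteins on, 0.19, and Selenos, a selenoprotein of the retrotranslocation complex, -0.18.

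Few members separated Il1rl1-positive from Cxcr3-positive cells, which carry a receptor of type 1 effector T cells. Ero1l was the 1 member of 29 counted as higher, where 1.96% of all genes were, and no member was lower, where 2.53% were. That call was lost with the other hashtag call, under which the median for Ero1l was 1.08 but the range was -0.71 to 1.55 and 0 members were counted. The median over members was 0.19, against -0.03 over all genes. Ppp1r15a had the highest median, 1.18, but hashtag 5 lay at -0.36, so it was not counted; in hashtags 1 to 4 alone, a choice made after the Il1rl1 shares were seen, it was at 1.28 (range 1.14 to 1.37) and was counted, where 7.59% of all genes were. Pdia3, the glycoprotein isomerase, was above 0 in 6 of 6 hashtags at a median of 0.25. Dnajc3, a cochaperone of BiP that also inhibits PERK, pointed down, with 90.4, 85.8, 79.4, 87.8, 138 and 142 CPM in Il1rl1-positive and 124, 138, 112, 116, 138 and 146 CPM in Cxcr3-positive cells. The hashtags 1 to 4 of the Il1rl1 gate were below all Cxcr3-positive values, and the median log2 ratio of -0.43 did not reach the line. Ddit3 had a similar median of -0.44, with a range of -1.24 to 0.52.

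Foxp3-positive cells without Il1rl1, 30 to 92 cells per hashtag, showed 6 of 29 members higher than in naive cells, Hspa5, Hsp90b1, Pdia3, Sel1l, Atf6 and Ppp1r15a, where 10.5% of all genes were higher. None was lower, where 1.47% were. The median was 0.47 over members and 0.29 over all genes, and with the second scaling Sel1l and Atf6 were counted, where 6.1% of all genes were. Pdia3 was at 266 CPM (238 to 297) against 163 (156 to 171), with 6 of 6 hashtags above 0 and a median of 0.80. Hsp90b1 was at 203 CPM (179 to 231) against 131 (124 to 138), with a median of 0.69. Without hashtag 6 the count of higher members was 10, where 12.8% of all genes were higher. The summed level of the 14 dissociation genes in this gate was 8359, 12905, 6613, 11044, 2453 and 2333 CPM in hashtags 1 to 6, above naive cells in each, with 14 of 14 medians above 0, a median of 0.85 and 4 counted. Their part in the values of the members was not tested.

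Cxcr3-positive cells had 4 of 29 members higher than naive cells, Hspa5, Sel1l, Xbp1 and Atf6, where 8.74% of all genes were higher, and none lower, where 1.90% were. All 29 medians were above 0, with a median of 0.33 over members and 0.20 over all genes. Hspa5 was at 243, 236, 201, 230, 286 and 229 CPM in Cxcr3-positive and at 156, 196, 156, 124, 179 and 149 CPM in naive cells. Every Cxcr3-positive value was above every naive one, and the median log2 ratio was 0.63, or 0.43 with the second scaling. Under that scaling Sel1l and Atf6 were the members counted, where 4.65% of all genes were, and 21 of 30 medians were above 0. With the other hashtag call, which takes the tag of the highest count, Xbp1 and Atf6 were counted and Hspa5 (median 0.49) and Sel1l were not.

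Cxcr5-positive cells, which carry the receptor of follicular helper T cells, were compared with naive cells in the 4 hashtags with enough cells (1, 3, 5 and 6). Of 28 members 7 were higher than in naive cells, Hspa5, Calr, Manf, Sel1l, Xbp1, Ddit3 and Selenos, where 14.7% of all genes were higher, and none was lower, where 1.82% were. The medians were 0.35 over members and 0.29 over all genes. Ddit3 was at 46.0 CPM (35.8 to 58.2) in these cells and 22.9 (20.2 to 25.9) in naive cells, with a median log2 ratio of 0.92 (range 0.25 to 1.22). Selenos was at 136 CPM (118 to 156) against 93.6 (88.1 to 99.4), with a median of 0.59. Ppp1r15a was not counted, with a median of 0.18. Hashtags 1 and 3 held 41 and 37 Cxcr5-positive cells, and without hashtag 3, or without hashtag 6, the count was 4, where 17.9% and 16.9% of all genes were higher. In hashtags 1, 5 and 6 a Cxcr5 UMI was no more frequent in T cells (1.94%, 7.19% and 5.65%) than in barcodes with markers of other cell types (6.74%, 8.08% and 7.05%). The share does not tell the gate from background there. With the second scaling Sel1l, Ddit3 and Atf6 were higher, where 8.83% of all genes were, and Dnajb9, the IRE1-regulated cochaperone ERdj4, was lower at -0.81, where 3.72% were. With the other hashtag call Manf, Sel1l, Xbp1, Ddit3 and Selenos were not counted.

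In cycling against Cxcr3-positive cells 2 of 29 members were counted as higher, the cochaperones Sdf2l1 and Creld2, where 8.56% of all genes were higher. The share of members counted as higher was below that of all genes. No member was lower, where 2.28% of all genes were. The median over members was 0.31, against 0.05 over all genes. Sdf2l1, a component of the BiP complex, was at 54.2, 48.1, 49.6, 42.8, 28.8 and 50.0 CPM in cycling cells of hashtags 1 to 6 and at 20.6, 16.5, 21.4, 12.2, 22.5 and 22.6 CPM in Cxcr3-positive cells. These values did not overlap between the gates, and the median log2 ratio was 1.31 (range 0.39 to 1.78). Within hashtags the exact intervals of Sdf2l1 were apart in hashtags 1 to 3 and overlapped in hashtags 4 to 6. Cycling cells gave 51, 26, 23, 14, 13 and 14 Sdf2l1 UMIs in hashtags 1 to 6. Creld2, a secreted ER stress protein with isomerase-like activity, was at 27.6, 29.6, 21.5, 39.8, 28.8 and 25.0 CPM against 19.0, 12.4, 15.8, 18.3, 15.7 and 12.2 CPM. Its values too did not overlap between the gates, with a median of 0.995. They rest on 26, 16, 10, 13, 13 and 7 UMIs in cycling cells. Within each hashtag the exact intervals of Creld2 in both gates overlapped.

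Several further chaperones were above Cxcr3-positive cells in all 6 hashtags without reaching 1.5-fold. Hsp90b1 had a median log2 ratio of 0.55 (range 0.33 to 0.89), Manf, a neurotrophic factor kept in the ER with BiP, 0.55 (0.29 to 1.16), Pdia6 0.54 (0.43 to 0.66), the translocon subunit Sec61b 0.44 (0.27 to 0.53), Canx 0.43 (0.01 to 0.56), Pdia3 0.39 (0.18 to 0.88) and Calr 0.31 (0.07 to 0.50). No member of the ATF4 branch was counted: medians were -0.11 for Atf4, 0.17 for Ppp1r15a and -0.52 for Ddit3, which counted as lower at -0.60 with the second scaling, where 3.48% of all genes were lower. Degradation genes were not counted either, with medians of 0.07 for Herpud1, 0.01 for Syvn1, -0.05 for Edem1, -0.18 for Sel1l and 0.03 for Selenos. In hashtags 1 to 4 alone, a choice made after seeing the data, 7 members were counted, Hsp90b1, P4hb, Dnajb11, Sdf2l1, Creld2, Manf and Ero1l, where 12.7% of all genes were. The gate rests on 1 Mki67 UMI in 65.2% of its cells, its median depth was 4350 UMIs per cell against 2981 in Cxcr3-positive cells, and 30.9% of its cells had an Il1rl1 UMI. Mki67 UMIs were in 2.44% to 5.89% of T cells over hashtags and in 2.98% to 13.0% of barcodes with markers of other cell types, and the part of depth and free RNA was not tested.

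**Figure D4:**
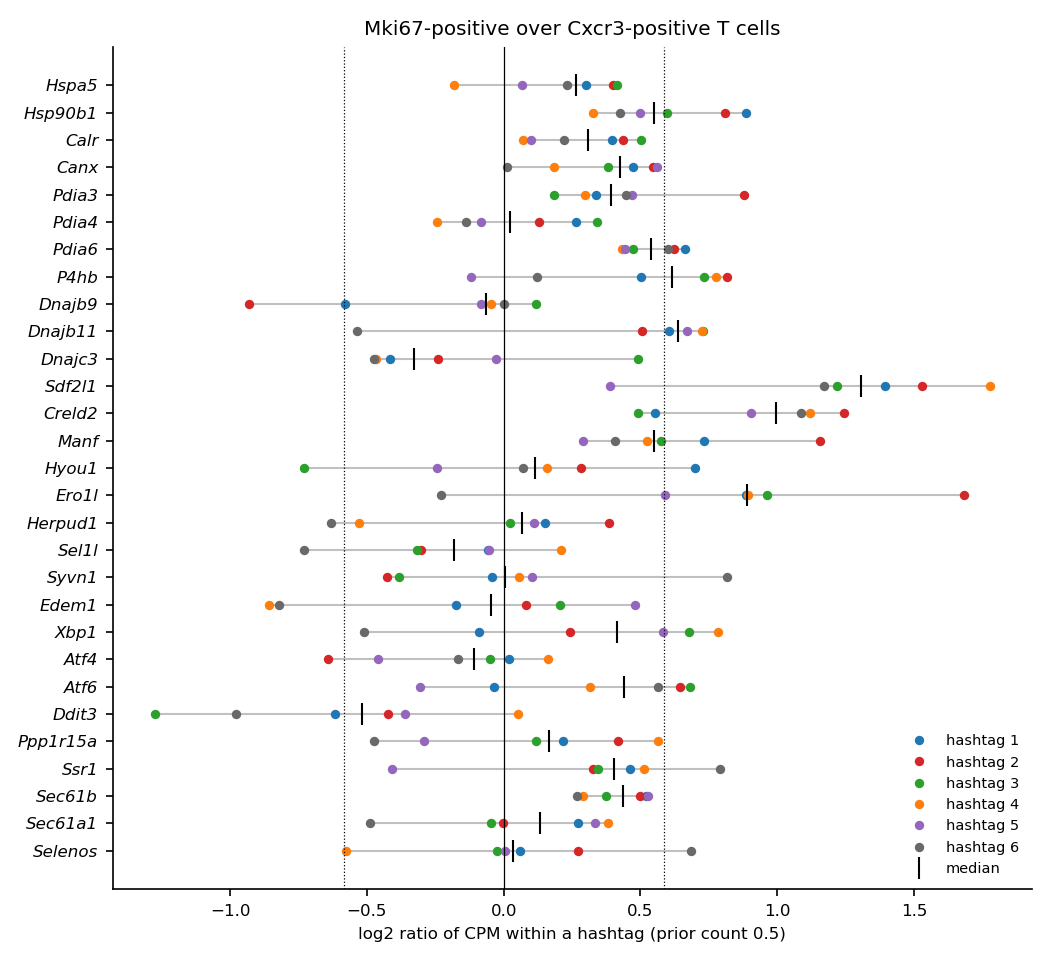
Log2 ratio of CPM, Mki67-positive (cycling) over Cxcr3-positive T cells, for the 29 members read; points are hashtags, ticks are medians, grey lines are ranges and dotted lines mark 1.5-fold. Sdf2l1 and Creld2 (medians 1.31 and 0.995) are past the line with all hashtags above 0, and Ddit3 has the lowest median, -0.52.

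Gzmb-positive cells, marked by the cytotoxic protease granzyme B, had enough cells in hashtags 1 and 5 only, 59 and 32. P4hb and Creld2 were the 2 of 29 members higher than in Cxcr3-positive cells, where 16.1% of all genes were higher, and none was lower, where 7.26% were. The medians were 0.06 over members and 0.09 over all genes. The count ran from 1 to 11 over other settings, so no member is read from this gate.

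The spread of each member over the 6 hashtags was taken within 1 gate. A member counted when its highest hashtag was at least 1.5-fold above its lowest and their intervals were apart. In Il1rl1-positive cells 14 of 29 members counted, where 25.9% of all genes did, among them Ppp1r15a (12.7-fold), Ero1l (4.44-fold), Dnajb9 (4.37-fold), Xbp1 (2.41-fold) and Atf4 (2.21-fold). Lowest were hashtags 5 or 6 for 11 of the 14; Dnajc3, Selenos and Hyou1 were lowest in hashtag 3, 3 and 1. Among hashtags 1 to 4 alone 2 members counted, where 6.43% of all genes did, and the gate is not told from background in hashtags 5 and 6. In naive cells 6 of 28 counted, where 11.9% of all genes did: Hsp90b1, Calr, Dnajc3, Sdf2l1, Sel1l and Ppp1r15a. In Cxcr3-positive cells 5 of 29 counted, where 17.7% of all genes did: Calr, Dnajb9, Ero1l, Atf4 and Ppp1r15a. Calr was highest in hashtag 5 in both of these gates (212 and 292 CPM), whereas Ppp1r15a and, in Cxcr3-positive cells, Atf4, Ero1l and Dnajb9 were lowest in hashtag 5 or 6.

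Members with the ERSE letters were set beside those without, as a description. In cycling against Cxcr3-positive cells the median log2 ratio was 0.37 over the 8 with the letters (range -0.33 to 0.995) and 0.17 over the 17 without that were read. In Il1rl1-positive against naive cells these medians were 0.56 and 0.41, and in Il1rl1-positive against Cxcr3-positive cells 0.12 and 0.22. In Cxcr5-positive against naive cells they were 0.53 and 0.30. The ranges overlapped in each comparison, and Dnajc3, whose window holds the letters, was below 0 in 3 of these 4.

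The rest of the pathway was read from 95 other genes of ER folding, translocation and glycosylation, degradation, sensor processing and ATF4 or CHOP targets. Of those read, 11 of 79 were higher in Il1rl1-positive against naive cells (9.84% of all genes) and 2 of 79 against Cxcr3-positive cells (1.96%). Against naive cells 8 of 76 were higher in Foxp3-positive Il1rl1-negative (10.5% of all genes), 8 of 73 in Cxcr3-positive (8.74%) and 7 of 74 in Cxcr5-positive cells (14.7%). In the Cxcr5 comparison 1 was lower (1.82% of all genes), and 0 in the other 4. For Cxcr5-positive cells the share of higher genes was below that of all genes. Selenom, an ER selenoprotein, was highest among them in Il1rl1-positive cells, at 17.3 CPM against 1.33 in naive cells (median log2 ratio 2.80) and 7.13 in Cxcr3-positive cells (0.85). Lman1, a cargo receptor for ER export, had a median of 1.52 and the serine synthesis enzyme Psat1, an ATF4 target, 1.24 against naive cells; the amino acid transporter Slc7a5 had 0.61 against Cxcr3-positive cells. In Foxp3-positive Il1rl1-negative cells the transcription factors Cebpb (1.70), Atf3 (1.64) and Creb3l2 (1.34) led, and in Cxcr3-positive cells Cebpb (1.07), Lman1 (0.91) and the sulfhydryl oxidase Qsox1 (0.72). Cxcr5-positive cells were led by Psat1 (1.70), the prolyl isomerase Fkbp2 (0.76) and Dnajc1 (0.73), with the oligosaccharyltransferase subunit Stt3b lower (-0.64).

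Cycling cells had 12 of 77 of these other genes higher (8.56% of all genes) and 1 lower (2.28%) than Cxcr3-positive cells. Atf3, a stress-induced transcription factor, was at 64.9 against 8.16 CPM (median log2 ratio 2.21), Fkbp2 at 126 against 37.4 CPM (1.76) and Psat1 at 38.9 against 15.3 CPM (1.17), while Cebpb was lower at 55.9 against 83.9 CPM (-0.87). Of the 15 ATF4 or CHOP targets read, 5 were higher and 1 lower, while Atf4 and Ddit3 were not counted as higher. Gzmb-positive cells gave 6 of 77 higher, led by Txndc5, Eif2ak1 and Edem2, and 4 lower, led by Ufd1, Rtcb and Erlec1, on 5 to 21 UMIs each; both shares were below the 16.1% and 7.26% of all genes.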

How the data were processed

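Both deposited matrices hold counts that had not been normalised: UMIs for 55487 genes in 22960 barcodes, per the file headers, and tag counts, with 22952 barcodes in both. Cell Ranger 6.0, Seurat 3 and mm10 stand in the submitters' processing notes, and cellranger 4.0.0 in the matrix header; which version applies is unsettled. Hashtags 1 to 6, those with at least 1000 counts, were assigned by HTODemux at positive quantile 0.99 (R 4.3.3 with Seurat 5.3.0). The 14879 singlets were used, while 5804 doublets and 2269 uncalled barcodes were left out; pairs that share a hashtag are not detected. Cells needed 500 genes and under 10% mitochondrial UMIs, and T cells 2 UMIs of 6 T cell genes and fewer than 3 UMIs of other cell types' markers. Sums, ratios and exact intervals were computed with numpy 2.4.6, pandas 2.3.3 and scipy 1.17.1 under Python 3.11.15 (figures: matplotlib 3.10.9), and the ratio code was tested on simulated data. The rules are given in the report, except that 1 gene of the naive gate was used but is not reported here; UMI intervals cover counting error only, and levels of different genes are not compared. All 32 members are named; of the other pathway genes, up to 3 in each direction with the largest median ratio among those counted. Ero1l was matched to RefSeq as a synonym, and a second Ddit3 gene ID had 0 UMIs. The members and lists were chosen with earlier results of these data known. Alternatives were another hashtag call, stricter cell filters, gates at 2 UMIs, a Foxp3 UMI required in the Il1rl1 gate, another scaling, prior count and level filter, each hashtag left out, and, added after seeing the data, hashtags 1 to 4 alone and T cells with no UMI of other cell types' markers.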

Additional observations from a re-analysis of the deposited data

How the results depend on the processing

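Scaling without ribosomal protein and mitochondrial genes gave medians of 0.21 (Il1rl1-positive against naive), 0.18 (Foxp3-positive Il1rl1-negative), 0.12 (Cxcr3-positive) and, reversed, -0.0068 for Gzmb-positive against Cxcr3-positive cells, and counts of 3, 2, 2, 3 (Cxcr5-positive) and 1 (Gzmb-positive). With gates at 2 UMIs the counts were 13 for Il1rl1-positive against naive, 3 against Cxcr3-positive, 2 for Cxcr3-positive, 13 for Cxcr5-positive (hashtag 5 alone), 8 for Gzmb-positive and 8 for cycling cells, and no member counted for spread (0) in the Il1rl1 gate. Foxp3-positive Il1rl1-negative cells at 2 UMIs were under 30 in every hashtag and gave no value. At 2 UMIs the Il1rl1 gate held 7 and 9 cells in hashtags 5 and 6, so its counts rest on hashtags 1 to 4. The Gzmb-positive count rests on hashtag 1 and the cycling count on hashtags 1 and 2. Requiring a Foxp3 UMI in the Il1rl1 gate gave 15 against naive, 4 against Cxcr3-positive cells and a spread count of 0. It left 8 cells in each of hashtags 5 and 6, so these counts rest on hashtags 1 to 4. The other hashtag call gave 0 for Il1rl1-positive against Cxcr3-positive, 2 for Cxcr3-positive against naive and 1 for Gzmb-positive cells. Prior count 2 gave 11 for Foxp3-positive Il1rl1-negative and 11 for Gzmb-positive cells; no level filter gave 4 for Gzmb-positive cells. At 30 CPM cycling cells had 1 and the spread in Cxcr3-positive cells 3. Hashtags 1 to 4 alone gave 14 (Il1rl1-positive against naive), 2 (against Cxcr3-positive), 11 (Foxp3-positive Il1rl1-negative), 4 (Gzmb-positive) and 7 (cycling), and spread counts of 2, 2 and 0 in Il1rl1-positive, naive and Cxcr3-positive cells. T cells with no UMI of other cell types' markers gave 5 (Il1rl1-positive against naive), 11 (Cxcr5-positive), 6 (Gzmb-positive), 6 (cycling) and a spread of 2 in naive cells. The Gzmb-positive median was 0.37 at 2 UMIs, 0.24 at prior count 2, 0.21 in hashtags 1 to 4 and 0.22 without marker UMIs. Leaving out 1 hashtag at a time, counts ran from 1 to 3 (Il1rl1-positive against Cxcr3-positive, 3 without hashtag 5), 5 to 10 (Foxp3-positive Il1rl1-negative, 10 without hashtag 6), 4 to 8 (Cxcr5-positive, 4 without hashtag 3 or 6), 4 to 7 (Gzmb-positive, median 0.061 to 0.21), 2 to 5 (cycling, 4 without hashtag 4 and 5 without hashtag 5 or 6), and spread counts 8 to 14 (Il1rl1-positive, 8 without hashtag 6) and 3 to 5 (Cxcr3-positive, 3 without hashtag 5). Counts here stand without the share of all genes and are not read as results about the members. That share also moves with the setting. In hashtags 1 to 4 alone it was 7.59%, in place of 1.96%, for Il1rl1-positive against Cxcr3-positive cells. For cycling cells it was 12.7%, in place of 8.56%. Settings that left a hashtag under 30 cells used fewer hashtags, where the same sign is easier to reach. The cause of these changes was not tested, and 187 of 243 alternative values stayed within the limits set. No paired analysis was possible because the groups are pooled in 1 expression library. In naive cells of hashtags 1 to 4, Ern1, Eif2ak3, Trib3 and Atf6 had 1 to 4 UMIs each per hashtag, so their ratios there are wide.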

Other observations

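Barcodes outside the T cell gate, with 3 or more UMIs of another cell type's markers, gave levels of the members in other cells of the sort. The 95 plasma-cell-marked barcodes (776771 UMIs) had Xbp1 at 583 CPM, Hsp90b1 at 981, Manf at 434, Dnajc3 at 238, Herpud1 at 263, Pdia4 at 251, Edem1 at 196, Creld2 at 191, Sel1l at 161 and Sdf2l1 at 157. For these 10 genes, chosen after their values were seen, the level was above that of every T cell gate; Ppp1r15a, at 77.2 CPM, and Atf4, at 131 CPM, were within the range of the T cell gates. In 71 stromal-marked barcodes Calr was at 599, Pdia3 at 584, Canx at 279, P4hb at 241 and Xbp1 at 182 CPM. Hspa5 and Hsp90b1 were at 572 and 590 CPM there. The disulfide enzyme Ero1l was at 31.6 CPM, below the 74.0 CPM of Il1rl1-positive T cells. In 215 macrophage-marked and 181 endothelial-marked barcodes Xbp1 was at 97.7 and 110 CPM. T cell genes were still at 1515 to 4006 CPM in these barcodes.

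Within the Il1rl1 gate of hashtags 1 to 4, 316 cells had a Foxp3 UMI and 1742 had none. Ppp1r15a was at 499 CPM (461 to 538) with and 422 (406 to 438) without one, Ero1l at 96.3 (80.3 to 115) and 77.5 (70.8 to 84.8), and Sel1l at 25.0 (17.2 to 35.1) and 37.9 (33.2 to 43.0). Hspa5 was at 276 (248 to 306) and 285 (272 to 299) and Xbp1 at 73.5 (59.6 to 89.7) and 78.8 (72.0 to 86.1). The intervals overlapped for Ero1l, Sel1l, Hspa5 and Xbp1 and were apart for Ppp1r15a. These intervals cover counting error only.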
